A study of Callorhinchus milii with 12 samples.

Results

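Of 17485 adjoining 50 kb windows of the elephant shark genome that held at least 500 CG calls, 1632 (9.33%) had a CG methylation level of 85% or more when the calls of a female and a male liver were added. Windows were counted from the first position of each scaffold, and the level is the share of CG calls that were methylated. The 1632 highly methylated windows covered 80.4 Mb, which is 9.25% of the 869 Mb of all windows, and held 10.0% of all calls. Both totals include a further 67 windows that had fewer than 500 calls and were left out of the choice. Since the level chose the windows, levels inside them are given as a description, and no test was made on them.

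The elephant shark, Callorhinchus milii, is a cartilaginous fish, and 12 libraries were made by whole-genome bisulfite sequencing from liver, spleen and pancreas to read DNA methylation. The windows rest on the 2 deep-sequenced libraries, from the liver of 1 adult female and of 1 adult male, both supplied by commercial fishermen, with no treatment named in the labels. Bisulfite turns unmethylated cytosines into uracil, which is read as T, and leaves methylated cytosines as C. The 10 low-coverage libraries carry no positions in their files and were not used here.

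In vertebrates, most cytosines in CG dinucleotides are methylated. A maintenance enzyme copies the mark onto the new strand after DNA replication. Unmethylated islands are short exceptions, often rich in CG and often at the start of genes. Domains of partly lost methylation are known from some tissues and cultured cells of mammals. Genes and repeats in the windows were not analysed here.

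The female liver gave 30080951 CG calls and the male liver 38128530, and 13522973 CG sites had at least 1 call. In the highly methylated windows the median number of calls was 3431 a window (range 575 to 13265), against 3256 in windows under 85%. At the limit the counting error of a level was 0.610 percentage points (1 SE, at the median number of calls). Neighbouring calls of 1 read are not independent, so this error and all intervals below (95%, Wilson) are too narrow as errors of a level and cover counting error only. With 1 library per sex there was no replicate check, and differences between the livers are differences between 2 animals. A level below 100% in a bulk liver can come from a share of the cells, of the alleles or of the sites, and these cannot be told apart from the level alone.

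Over all their calls the highly methylated windows stood at 87.8%, against 68.5% in the 15853 windows under 85%. Their levels ranged from 85% to 95.1%, with quartiles at 86.2%, 87.5% and 89.1%. The windows under 85% had quartiles at 60.4%, 70.1% and 77.0%, and a lowest level of 0.991%. Of the highly methylated windows, 1379 lay between 85% and 90%, 253 were at 90% or more and 1 was above 95%. No gap set them apart, since 388 windows lay between 84% and 85% and 331 between 85% and 86%.

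**Figure D1:**
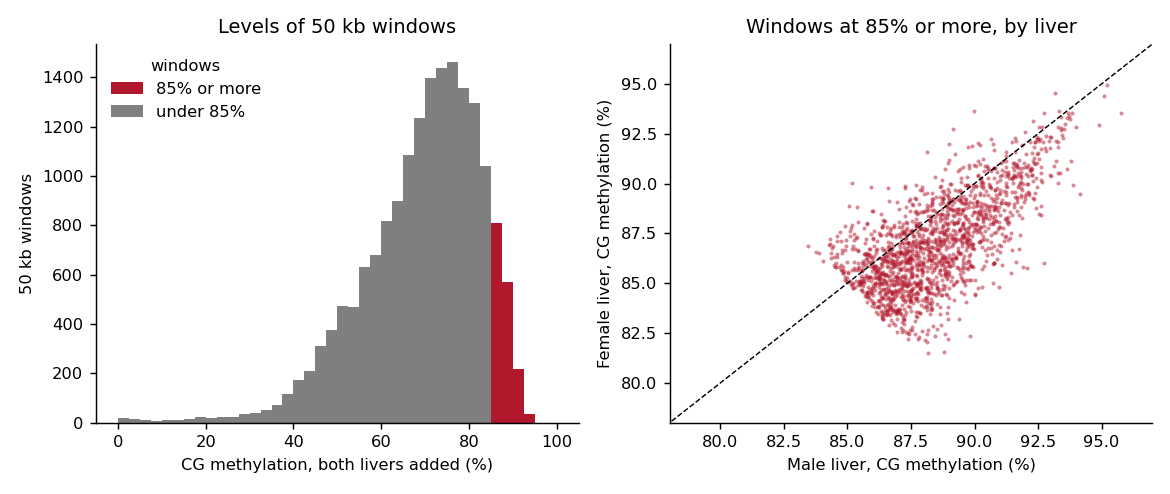
Left, histogram of the CG methylation level of all 17485 windows (x axis, percent of calls, both livers added; y axis, number of 50 kb windows), with the 1632 windows at 85% or more in red. Right, female level (y axis) against male level (x axis) of the highly methylated windows with enough calls in each liver, 1 point a window, with the line of equal levels: 1308 of 1621 points lie below it, where the female liver was lower.

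In the 6 windows nearest the limit, 1 liver was above it and the other below it. A summed level this close to the limit all but fixes that outcome. Just inside it, scaffold NW_006890091.1 from 650001 to 700000 had 86.1% in the female and 84.1% in the male liver (85% together, 2805 of 3300 calls). NW_006890169.1 from 450001 to 500000 had 83.2% in the female and 86.4% in the male liver, and NW_006890073.1 from 6600001 to 6650000 had 86.9% in the female and 83.4% in the male liver. Just outside it, NW_006890068.1 from 4700001 to 4750000 had 83.4% in the female and 86.5% in the male liver. NW_006890113.1 from 4500001 to 4521822, the short last window of its scaffold, had 80.6% in the female and 88.5% in the male liver, and NW_006890380.1 from 250001 to 282268 had 84.5% in the female and 85.3% in the male liver. Each of the 6 windows lay within its counting error of the limit.

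Whether high methylation in one liver was also found in the other was read from windows chosen in 1 liver alone, where the calls of the second liver had no part in the choice. Of the 17402 windows with at least 500 calls in each liver, 1348 (7.75%) were at 85% or more in the female liver. In the male liver these had 88.5% of calls methylated, with a lowest window of 80.4%, and 1252 of them (92.9%) were at 85% or more there. Over all windows that share was 11%, and over the windows not chosen in the female liver it was 4.16%. In the other direction, 1920 windows were at 85% or more in the male liver, and 1252 of these (65.2%) also reached 85% in the female liver, against 0.620% of the windows not chosen in the male liver. The female level over them was 86.2%, with a lowest window of 75.1%. No window chosen in either liver was therefore under 75% in the other.

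The female liver was lower than the male liver in most highly methylated windows, by a small amount. Their calls were methylated at 87.1% in the female and 88.4% in the male liver, a female minus male difference of -1.37 points. With windows chosen in the female liver alone it was -0.845 points, and with windows chosen in the male liver alone -1.81 points. The calls that chose these windows also enter the difference and favour the level of the choosing liver, so the choice itself moves both values. Taken from the reads of each of the 2 sequencing lanes in the read names, the difference was -1.41 and -1.33 points. Windows under 85% had 67.0% in the female liver and 69.7% in the male liver, a difference of -2.71 points. Counted as unmethylated calls, the highly methylated windows had 12.9% in the female and 11.6% in the male liver. The female to male ratio of these shares was 1.12 in highly methylated windows, against 1.09 in windows under 85%.

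The difference also varied less from window to window in highly methylated DNA. Over the 1621 highly methylated windows with at least 500 calls in each liver, female minus male averaged -1.47 points with an SD of 1.78 points, against 1.14 points from counting alone. Over windows under 85% the SD was 3.81 points, against 1.62 points from counting. The female level was lower in 1308 of the 1621 windows (80.7%), close to the 79.5% of all windows. It was lower by 5 points or more in 39 windows (2.41%), against 23.1% of all windows and 11.3% of those between 75% and 85%. It was higher by 5 points or more in 0 windows, against 1.33% of all windows. A limit on the summed level narrows the differences that can occur, so these counts describe the windows and are not a test. The female and male levels had a Pearson correlation of 0.674 over the 1621 windows and of 0.965 over all 17402, with the same 2 libraries behind every window. The choice leaves the 1621 windows a narrow range of levels, so the lower correlation does not show poorer agreement of the livers.

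The windows at both ends of that range were looked up after their values were seen. On NW_006890070.1, the window from 8850001 to 8900000 had 82.4% in the female and 89.8% in the male liver, and the adjoining one from 8800001 had 81.6% in the female and 88.8% in the male liver. These differences of -7.44 and -7.21 points were the 2 most negative of the 1621 windows. At the other end, NW_006890206.1 from 1400001 to 1450000 had 90.04% in the female liver, against 85.2% in the male liver (4.85 points).

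CG density differed little between highly methylated and other windows. The median was 14.4 called CG sites per kb in highly methylated windows (quartiles 11.8 and 19.4, range 1.78 to 44.5), against 13.8 in windows under 85% (quartiles 11.5 and 18.2) and 15.6 in those between 75% and 85%. Of the highly methylated windows, 53.7% (51.3% to 56.1%) were above the median density of all windows. These densities include length without calls. Per kb of 500 bp bins with a call, the highly methylated windows had a median of 14.9 (range 7.25 to 58.5), against 14.3 in windows under 85%. In 43 of them (2.63%, against 1.52% of all windows) such bins covered under 25 kb. The depth behind the sites was similar, with a median of 4.88 calls a site, against 4.76 in windows under 85%. The middle distance from 1 CG site to the next was 28 bp in highly methylated windows and 29 bp in windows under 85%. The highest depth of a window was 9.94 calls a site among the highly methylated ones, against 52.1 among the others.

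All windows were split into 10 classes of about equal size by CG density. The share of highly methylated windows lay between 7.59% and 9.89% in the 9 sparser classes. In the densest class, with at least 24.1 sites per kb, it was 12.9% (226 of 1753 windows). Windows under 50% thinned out in the same direction, with 15.05% of the sparsest and 2.68% of the densest class. Inside the highly methylated windows level and density had no rank relation to speak of (Spearman rho -0.0119 over 1632 windows), while over all 17485 windows rho was 0.240. The choice leaves the 1632 windows a narrow range of levels, so this contrast does not show a weaker relation in them.

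Methylation was also set against the number of CG sites in 500 bp bins with at least 10 calls. In highly methylated windows the level was 84.4% with 1 to 5 CG sites, 88.8% with 11 to 20 and 89.9% with 31 to 40 sites. Bins with over 40 sites stood at 89.0% in highly methylated windows, and 12 of 258 (4.65%, 2.68% to 7.95%) were under 20%. Such bins stood at 27.6% in windows under 85%, and 1795 of 2948 (60.9%) were under 20%.

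Because an unmethylated bin lowers the level of its own window, the count was repeated with each bin set against the level of the rest of its window, which leaves the bin's own calls out of the choice. Where the rest was at 85% or more, the level was 83.99% with 1 to 5 sites and 87.98% with 11 to 20. It was 81.8% with 31 to 40 and 63.95% with over 40 sites. The high pooled level of the densest bins above thus did not hold once their own calls had no part in the choice. The median bin was still at 92.2% with 31 to 40 and at 90.6% with over 40 sites, against 91.1% with 11 to 20. Adjoining bins of the same unmethylated island stayed in the rest of the window, so the choice can still act on these values. With the rest under 85%, bins with over 40 sites stood at 28.9%. Where the rest was at 85% or more, 91 of 317 bins with over 40 sites (28.7%, 24.0% to 33.9%) were under 20%. Where the rest was under 85%, 1715 of 2888 (59.4%, 57.6% to 61.2%) were, and where it was between 75% and 85% the share was 47.8% (45.1% to 50.6%). The intervals do not overlap, but they take bins as independent and are too narrow. The same order held with 31 to 40 sites, at 9.75% against 26.8%, and with 1 to 5 sites, at 0.762% against 5.06%. Bins of 1 library pair are not replicates, and the difference was not tested.

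**Figure D2:**
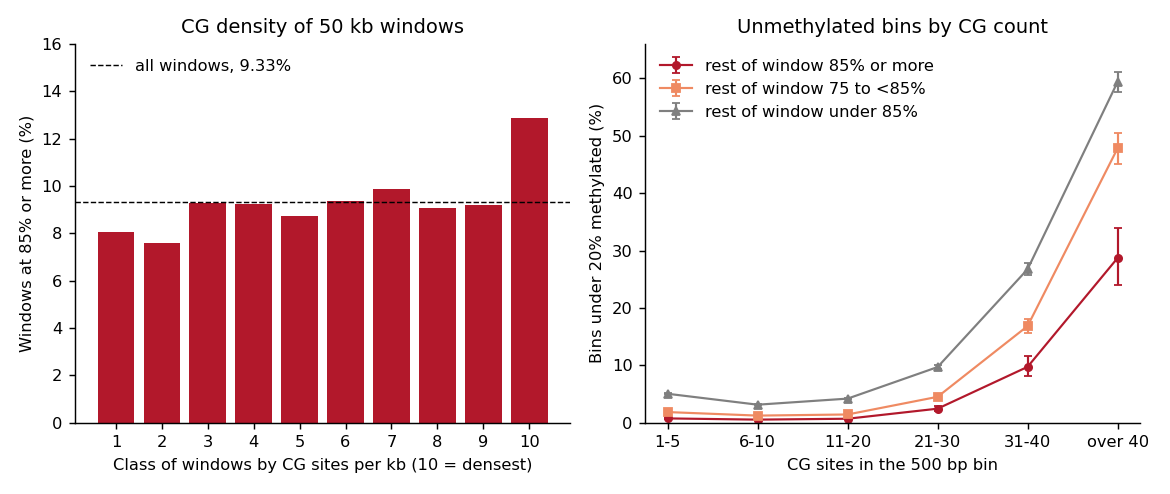
Left, share of windows at 85% or more (y axis, percent) in 10 classes of all windows by CG sites per kb (x axis, class 10 is the densest), with the share over all windows (9.33%) as a dashed line; the densest class stands at 12.9%. Right, share of 500 bp bins under 20% methylated (y axis, percent, bars are 95% Wilson intervals) by the number of CG sites in the bin (x axis), for bins whose window without them was at 85% or more, between 75% and 85%, or under 85%: over 40 sites the shares are 28.7%, 47.8% and 59.4%.

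Highly methylated windows often lay next to each other, but long stretches were few. Of the 1632 windows, 841 (51.5%, 49.1% to 54.0%) adjoined another one, while 12.4% of the windows under 85% (11.9% to 13.0%) adjoined a highly methylated window. Of 3167 neighbours of highly methylated windows, 1032 (32.6%) were themselves highly methylated, against 9.33% of all windows. Joined end to end they made 1116 stretches. Of these, 791 were 1 window long, 211 had 2 windows, 71 had 3, 27 had 4, and 16 had 5 to 10. In all, 419 of the windows lay in stretches of at least 150 kb.

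The longest stretch was 500 kb, on NW_006890195.1 from 150001 to 650000, at 88.7% in the female and 89.8% in the male liver. Its 10 windows ranged from 83.7% to 93.2% in the female liver (median 88.4%) and from 86.8% to 93.8% in the male liver (median 89.3%), and the female was lower in all 10. The next window on one side was at 78.01% and on the other at 84.7%. It had 14.4 CG sites per kb, and 4 unmethylated bins of 500 bp, all in 1 window.

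The second, of 9 windows on NW_006890090.1 from 3200001 to 3650000, had 86.6% in the female and 89.5% in the male liver. Its windows ranged from 84.5% to 90.3% in the female liver and from 86.5% to 92.4% in the male liver, again with the female lower in all 9. This stretch broke off sharply on one side, where the window before it was at 53.8%, while the window after it was at 84.6%. The third, of 8 windows on NW_006890080.1 from 6600001 to 7000000, stood at 89.2% in both livers and held no unmethylated bin. Its windows ran from 87.5% to 91.0% in the female and from 86.7% to 91.5% in the male liver, and the windows beside it were at 83.4% and 60.5%.

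On NW_006890356.1, a scaffold whose last call lay at 351304, every one of the 7 windows with enough calls was highly methylated, at 89.8% in the female and 90.2% in the male liver. Its windows ran from 85.1% to 93.6% in the female and from 85.03% to 93.6% in the male liver. With 30.1 CG sites per kb it was the densest of the 5 stretches described, and it held 11 unmethylated bins in 3 windows. A further 4 stretches had 6 windows, and the one with the highest level is described. This stretch, on NW_006890325.1 from 50001 to 350000, stood at 91.3% in the female and 92.2% in the male liver. It held the highest window of all, from 150001 to 200000, at 95.1%. Its windows ran from 86.1% to 94.9% in the female and from 87.3% to 95.2% in the male liver.

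Windows in stretches of at least 3 differed somewhat from lone ones. The 419 windows in such stretches had a level of 88.3%, and 22.9% of them (19.1% to 27.2%) held an unmethylated island, as defined below. The 791 lone windows had a level of 87.5%, and 33.9% (30.7% to 37.3%) held one. Median CG density was 14.2 sites per kb in the joined and 14.5 in the lone windows, so density did not separate them. Of the joined windows 19.1% were at 90% or more, against 11.8% of the lone ones. Islands lower the level that chose each window and its neighbours, so the choice acts on the island shares. They are a description and were not tested.

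Methylation dropped at the edge of the stretches and fell off slowly beyond the next window. The next windows were counted once for each side of a stretch (2135 sides, 1973 different windows). Their median was 77.4% in the added calls, 76.4% for the female liver and 77.96% for the male liver. On 2.34% of the sides the next window was under 50%. At 100 kb the median was 76.4%, at 250 kb it was 74.97% and at 500 kb 73.1%, against 71.6% over all windows. At 500 kb 9.72% of windows were themselves highly methylated, near the 9.33% of all windows. A next window is under 85% by construction, which the more distant ones are not. Fewer sides could be read further out, with 1688 at 500 kb, and a window there can be counted for more than 1 stretch. Scaffold size can bear on this, since all windows had a median of 76.1% on scaffolds under 1 Mb and 69.8% on those of 6 Mb or more. Its part in the slow fall was not tested.

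**Figure D3:**
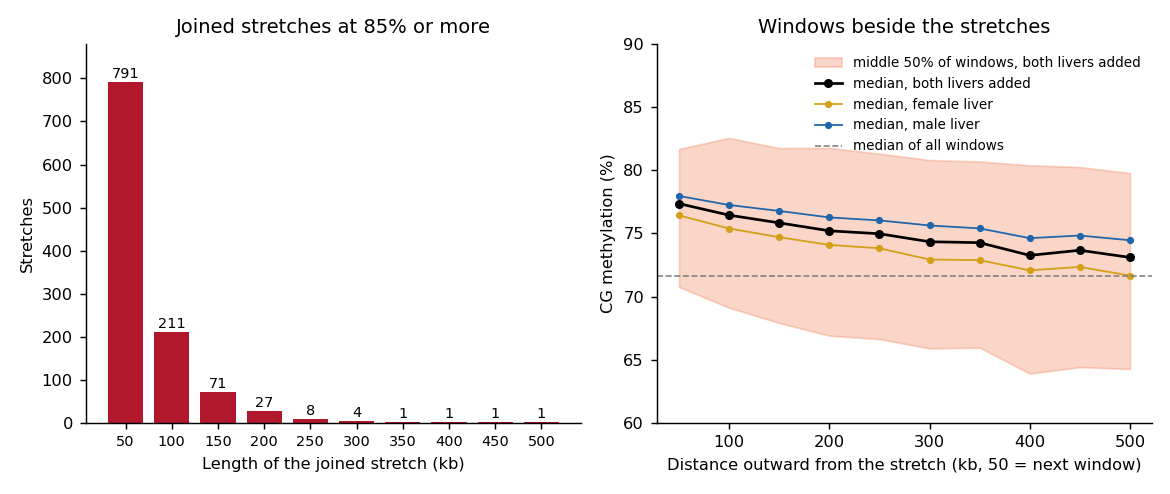
Left, number of stretches of joined windows at 85% or more (y axis) by length (x axis, kb), with 791 of 1116 a single window long and the longest 500 kb. Right, CG methylation (y axis, percent) of windows outward from a stretch (x axis, kb, 50 is the next window) as the median of both livers added with the middle 50% shaded, and as medians of the female and the male liver: the combined median is 77.4% beside a stretch and 73.1% at 500 kb, above the dashed median of all windows, 71.6%.

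The windows were spread over 274 of the 330 scaffolds, with at most 31 on 1 scaffold. Among the 116 scaffolds with at least 50 windows, 1 held none. The highest shares there were 29.7% on NW_006890135.1 (22 of 74 windows), 25.4% on NW_006890151.1 (16 of 63) and 24.1% on NW_006890156.1 (14 of 58). The largest scaffold, NW_006890054.1, held only 11 of 370 (2.97%). These 11 windows ranged from 83.99% to 89.9% in the female liver (median 86.6%) and from 85.4% to 90.8% in the male liver (median 87.4%). A single pair of them adjoined, from 3550001 to 3650000.

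Small scaffolds held more of them. The share was 16.5% on scaffolds under 1 Mb, 10.9% from 1 to 3 Mb, 9.54% from 3 to 6 Mb and 7.005% on scaffolds of 6 Mb or more. CG density of all windows moved with it, with medians of 18.7, 14.7, 13.9 and 12.9 sites per kb. The part of CG density in this order was not tested. Within 250 kb of a scaffold end 13.1% of windows (12.0% to 14.4%) were highly methylated, against 8.14% of those over 500 kb away. On scaffolds of 3 Mb or more the shares were closer, at 9.72% (8.02% to 11.7%) near the ends, against 7.79% (7.30% to 8.31%) over 500 kb away, and these intervals overlap. On scaffolds under 3 Mb they were 14.7% (13.3% to 16.3%) near the ends, against 10.9% (9.35% to 12.6%) over 500 kb away. Scaffolds under 1 Mb, with a share of 16.5%, can hold no window over 500 kb from both ends. The contrasts over all scaffolds and on those under 3 Mb therefore also compare scaffold sizes. These intervals take neighbouring windows as independent and are too narrow, and the differences were not tested.

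Methylation within the highly methylated windows was even. Cut into 2 kb pieces with at least 50 calls, they had a median of 89.2% and an SD of 9.08 points over 34991 pieces, against a median of 71.6% and an SD of 18.8 points in windows under 85%. Of these pieces 85.04% were at 80% or more, against 29.6%. Pieces under 50% made up 0.720% in highly methylated windows and 14.2% in windows under 85%, and pieces under 20% made up 0.157% and 2.73%. A mean near the top of the scale leaves little room for low pieces, so a narrow spread goes with the choice of windows.

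Unmethylated islands were counted as runs of adjoining 500 bp bins that each had at least 10 calls and under 20% of them methylated. The highly methylated windows held 582, or 7.24 per Mb, against 38.9 per Mb in windows under 85% and 19.9 per Mb in those between 75% and 85%. At least 1 island lay in 467 of the 1632 windows (28.6%, 26.5% to 30.9%), against 69.6% of all windows and 73.8% of those under 85%. Islands of at least 2 bins lay in 95 windows (5.82%), against 34.2% of windows under 85%. At 90% or more, 26 of 253 windows (10.3%) held an island, against 441 of 1379 (32.0%) between 85% and 90%.

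Islands lower the level that chose the windows, so the windows were chosen again from the calls outside islands. This choice, made after the data had been seen, took in 2611 windows, of which 979 were new and had a median level of 79.5% with their islands counted. Of the 2611, 55.4% held an island, against 72.1% of the other windows. With the calls in islands left out of the choice, the distance to the other windows was thus smaller, in the same direction. Low calls beside the counted islands stayed in the choice, so it can still act on these shares.

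As counted, the islands were short. Of the 582, 84.2% were a single bin, 12.2% were 1 kb and 3.61% were longer, with 2.5 kb the longest. A bin with fewer than 10 calls ends an island, so an unmethylated region can be longer than counted. Of the islands in windows under 85%, 72.7% were a single bin, 13.1% were over 1 kb, and the longest was 75.5 kb. Islands in highly methylated windows had a median of 16 CG sites per kb (quartiles 10 and 28), against 12 in windows under 85% and 18 in those between 75% and 85%. They were methylated at 6.66% in the female and 6.99% in the male liver, while islands in windows under 85% were at 3.74% in the female and 4.02% in the male liver. Methylation returned close to their edges, at 77.4% from 500 to 1000 bp from the middle and 84.8% from 2 to 5 kb. Around islands in windows under 85% it was 48.1% and 57.6% at these distances. The choice of windows sets high flanks and limits how long an island in them can be, so these contrasts are a description. Distances run from the middle, so the nearer ones can still lie inside a longer island.

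**Figure D4:**
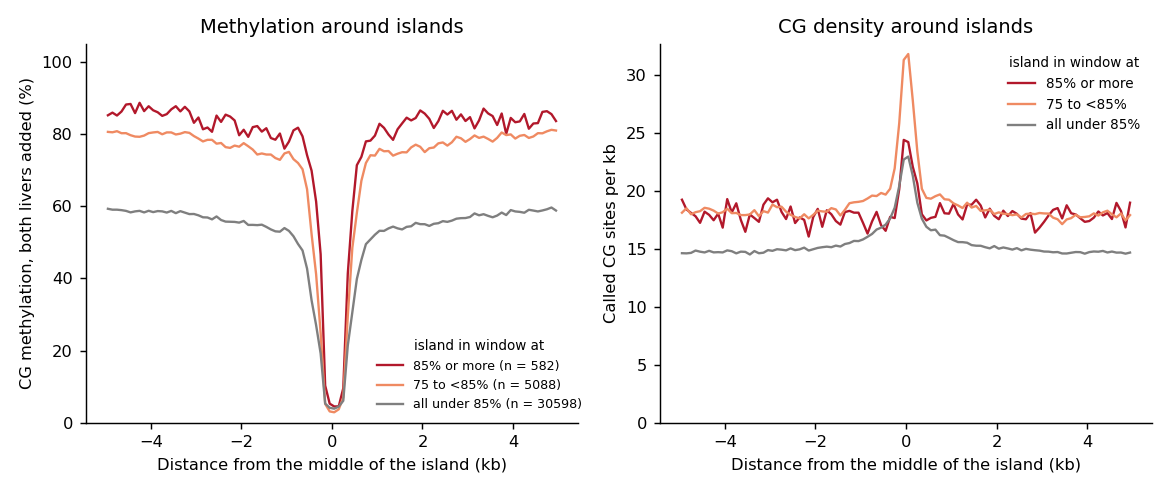
CG methylation (left, y axis, percent of calls, both livers added) and called CG sites per kb (right, y axis) by distance from the middle of unmethylated islands (x axis, kb), for islands in windows at 85% or more, between 75% and 85%, and under 85%. Lines add the calls or sites of 582, 5088 and 30598 islands: all fall below 10% at the middle, and 2 to 5 kb away the highly methylated windows are back at 84.8%, against 57.6% in windows under 85%.

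The longest island was 2.5 kb, on NW_006890356.1 from 139501 to 142000, inside the fourth longest stretch. It held 76 CG sites, and 3.75% of 80 female and 1.97% of 152 male calls were methylated. The 2 kb after it stood at 84.3%, and the 2 kb before it had no calls. On NW_006890266.1, the island from 246001 to 248000 had 38 sites at 2.27% in the female and 9.64% in the male liver, between flanks of 87.9% and 94.0%. Both were sharply bounded where they could be read.

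The other long islands had softer or unread edges. On NW_006890153.1 none of 56 calls from 638501 to 640500 was methylated in either liver, and the 2 kb on both sides were at 0% too, with 54 and 25 calls, so the low region ran on past the counted bins. On NW_006890073.1, the island from 38001 to 40000 had 6.25% in the female and 12.8% in the male liver, with 33.3% before and 94.8% after it. On NW_006890151.1, the one from 2389501 to 2391500 had 11.7% in the female and 8% in the male liver, with flanks of 64.8% and 54.9%.

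Island bins found in 1 liver were then read in the other. In highly methylated windows 497 bins with enough calls were under 20% in the female liver. In the male liver they were at 16.2%, and 295 (59.4%, 55.0% to 63.6%) were under 20% there, while 12 were at 80% or more. With 20 CG sites or more, 80 of 101 (79.2%) were low in both livers, and with fewer sites 215 of 396 (54.3%). The overall share in windows under 85% was 69.4%, and with 20 sites or more it was 94.97%. Starting from the male liver, 295 of 443 bins (66.6%) were under 20% in the female, against 80.9% in windows under 85%. Of all bins with at least 10 calls, both livers added, 0.555% were under 20% in highly methylated windows and 4.50% in windows under 85%. The calls of both livers chose the windows, so the shares low in both livers are a description. Bins with more CG sites also hold more calls, whose part in these shares was not tested.

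Most of the missing methylation in the windows lay outside islands. Of 829675 unmethylated calls in highly methylated windows, 33654 (4.06%, 4.01% to 4.10%) lay in an island, against 19.8% in windows under 85% and 10.1% in those between 75% and 85%. When windows were chosen by 1 call a read, the one listed first, the share was 10.3%. When they were chosen by the calls outside islands it was 27.9%, against 18.3% in the windows not chosen. The order of the 2 kinds of window thus turned round under that choice. Each choice acts on this share itself. A choice by all calls tends to leave out windows rich in islands. A choice by calls outside islands leaves out windows with many unmethylated calls there. Neither order is therefore a result about the windows. Without islands the level of the highly methylated windows was 88.3%, against 73.0% in windows under 85%. At CG sites with at least 5 calls (647652 sites), 55.4% were methylated in every call and 1.81% were under 20%, against 26.2% and 9.86% in windows under 85%. Of the unmethylated calls at these sites, 33.5% lay at sites of 80% or more, 26.2% at sites of 60% to 80%, and 14.2% at sites under 20%. In windows under 85% these shares were 12.0%, 20.0% and 33.1%.

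Few single CG sites were unmethylated in both livers. Of 88114 sites in highly methylated windows with at least 5 calls in each liver, 69503 (78.9%) were at 80% or more in both and 800 (0.908%) were under 20% in both. A further 226 (0.256%) were low in the female and high in the male liver, and 196 (0.222%) were high in the female and low in the male liver. Of the sites in windows under 85%, 10.9% were low in both livers, 0.419% were low in the female and high in the male liver, and 0.297% were high in the female and low in the male liver. Opposite states were rare in both kinds of window. Of the sites that were low in both livers or low in one and high in the other, those with opposite states made up 34.5% in highly methylated windows, against 6.17% in windows under 85%. The choice of windows keeps sites low in both livers few, so this contrast follows at least in part from the choice. As shares of all sites, opposite states were rarer in highly methylated windows.

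The 800 low sites had both low and high surroundings. Of them 308 (38.5%) lay in an island, against 84.1% of the low sites in windows under 85%. Of the 755 with at least 10 other calls within 100 bp, 247 (32.7%) were surrounded by calls at 80% or more and 350 (46.4%) by calls under 20%. In windows under 85% these shares were 1.82% and 88.3% of 76737 sites. Windows chosen for a high level have more high surroundings, so this contrast is a description too.

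Reads with at least 3 CG calls show how methylation was arranged along single DNA molecules. In highly methylated windows 1046882 such reads were 72.4% fully methylated, 24.8% mixed (24.7% to 24.8%) and 2.84% fully unmethylated. In windows under 85% the shares were 48.0%, 38.6% and 13.3%. The female liver had 71.1% fully methylated, 25.9% mixed and 3.04% fully unmethylated reads in highly methylated windows, and the male liver 73.4%, 23.9% and 2.68%. At 90% or more the shares were 77.9%, 20.7% and 1.42%.

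Mixed reads with 6 calls in highly methylated windows mostly missed a single site. Among all reads with 6 calls there, 67.9% were fully methylated, 21.3% had 1 unmethylated call and 1.71% were fully unmethylated, so that 70.2% of the mixed reads had 1 unmethylated call. In windows under 85% the shares were 43.6%, 22.8% and 10.9%, and 50.2% of mixed reads had 1 unmethylated call. The level of the windows bears on these shares, so their contrast follows at least in part from the choice. With independent calls at the level of these reads, 55.7% would be fully methylated in highly methylated windows. In windows under 85% it would be 16.7%. These values take 1 level for all sites. Sites of unequal level give more fully methylated reads even with independent calls, so the gap does not show a link between calls.

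Unmethylated calls outside islands also came in company. In highly methylated windows, 8.88% of calls with a neighbour 1 to 3 bp away on the same read were unmethylated, and beside an unmethylated call the share was 44.9%, which is 5.06 times as high. At 41 to 90 bp the shares were 13.5% overall and 36.1% beside an unmethylated call, a ratio of 2.68. In windows under 85% the ratios were 3.38 and 1.67, and in those between 75% and 85% they were 4.04 and 2.05. A lower overall share leaves room for a higher ratio, so the order of the ratios follows at least in part from the choice of windows. The correlation of neighbouring calls had the opposite order. It was 0.396 at 1 to 3 bp and 0.262 at 41 to 90 bp in highly methylated windows, against 0.540 and 0.299 in windows under 85%. Between 75% and 85% it was 0.492 and 0.288. These ratios and correlations pool sites and windows of unequal level, which raises both even where calls of 1 molecule are independent. Windows under 85% spanned a wider range of levels, so the order of the correlations is a description too.

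**Figure D5:**
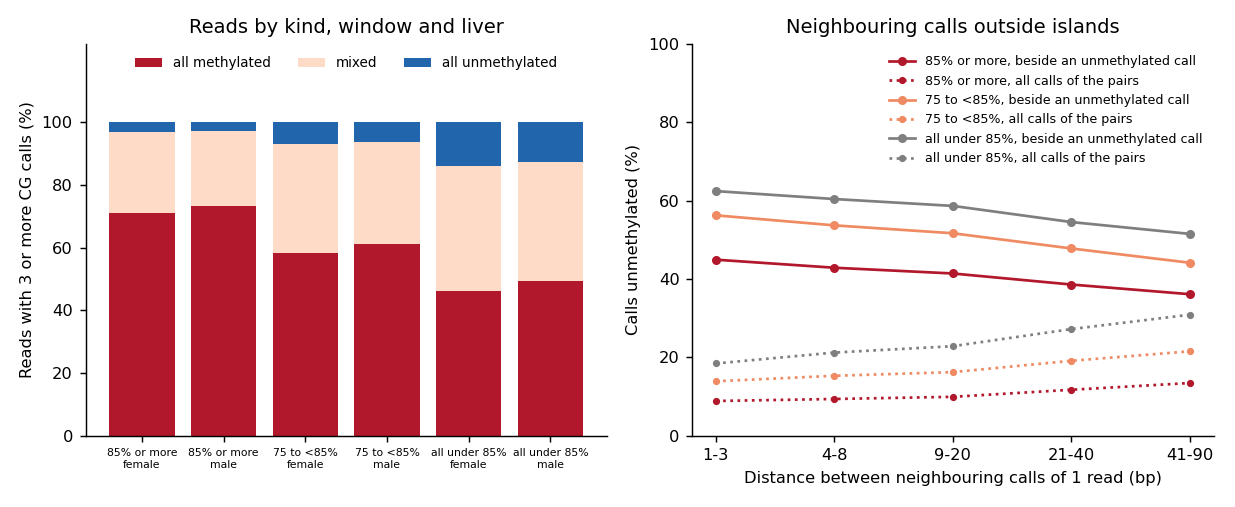
Left, shares of reads with at least 3 CG calls (y axis, percent) that were fully methylated, mixed or fully unmethylated, by window level and liver; in windows at 85% or more 71.1% of female and 73.4% of male reads were fully methylated. Right, outside islands, share of calls that were unmethylated (y axis, percent) by the distance to the neighbouring call of the same read (x axis, bp), over all calls (dotted) and beside an unmethylated call (solid): in highly methylated windows the solid line is at 44.9% at 1 to 3 bp and at 36.1% at 41 to 90 bp.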

How the data were processed

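CG methylation was measured by post-bisulfite adapter tagging, in which adapters are added after bisulfite conversion. The authors trimmed the reads with Trim Galore (v0.4.0), aligned them to the larger scaffolds of assembly 6.1.3 and extracted calls with Bismark (v0.14.3) after removal of duplicates. The deposited files of the 2 deep libraries hold 1 line per read and cytosine, marked methylated or unmethylated, with no normalization. They held 30080951 (female) and 38128530 (male) CG calls. A T in the animal at a C of the reference is read as unmethylated, and its effect was not tested. A gene table of another assembly and the reports of the low-coverage libraries were not used.

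Calls of both livers were added over adjoining 50 kb windows from position 1 of each scaffold, with at least 500 calls. Called positions 1 bp apart were joined into CG sites. Islands, reads and sites are defined where they are first reported. Named windows were the largest scaffold, the 5 longest stretches (ties by the higher level), the 3 windows on each side of the limit, the 5 longest islands and the 3 scaffolds of at least 50 windows with the highest shares. Windows with extreme differences between the livers were named after their values were seen. Members, lists and definitions were chosen with earlier results of these data known. Alternatives changed the window size, offset, call minimum, library, weighting, joining, island and read definitions. Shares have 95% Wilson intervals. Python 3.11.15, NumPy 2.4.6, pyarrow 21.0.0, SciPy 1.17.1 and Matplotlib 3.10.9 were used, and window, island and read counting was tested on simulated data.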

Additional observations from a re-analysis of the deposited data

How the results depend on the processing

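In order, the main values were 1632 windows, 53.7% of them above the median CG density, 51.5% adjoining another, 28.6% with an island, 24.8% mixed reads, a female minus male difference of -1.37 points and 4.06% of unmethylated calls in islands. With 1 call a read, the one listed first, 1127 windows were chosen. Of these, 47.6% adjoined another and 31.1% held an island. In them 23.0% of reads were mixed, the difference was -1.22 points and 10.3% of unmethylated calls lay in islands. The female liver alone chose 1348 windows, with 47.3% adjoining, 24.5% mixed, -0.845 points and 4.33%. The male liver alone, with at least 500 male calls, chose 1925, with 54.1%, 25.3% and -1.81 points. With the mean over sites 1828 windows were chosen, 55.0% adjoined, 25.0% of reads were mixed and 4.48% of unmethylated calls lay in islands. A minimum of 2000 calls gave 1519 windows and 4.12% of unmethylated calls in islands. A shift of 25 kb gave 1678 windows and 3.66%. Windows of 25 kb gave 4567 windows, 12.4% with an island, and windows of 100 kb gave 504, with 59.3% above the median density and 48.4% with an island. Allowing 1 window between joined ones gave 63.8% adjoining. Islands under 10% lay in 18.3% of windows with 2.79% of unmethylated calls, those with at least 20 calls a bin in 21.1% with 3.71%, those of 1 kb bins in 13.2% with 2.42%, and those of at least 2 bins in 5.82% with 1.52%. Mixed reads made up 27.6% with at least 4 calls and 30.2% with at least 5. Of the alternatives added after seeing the data, the choice without islands gave 2611 windows, 65.3% adjoining, 55.4% with an island and 27.9% of unmethylated calls in islands, and scaffolds of 3 Mb or more held 1033 windows. The causes were not tested. The female level stayed below the male level under every alternative run, though a choice in 1 liver alone acts on this difference. The share of unmethylated calls in islands was lower than in the other windows as first chosen, but higher when windows were chosen without islands (27.9%, against 18.3% in the windows not chosen). Each choice acts on this share, so neither order is a result about the windows. For most other alternatives the windows not chosen were not compared. No paired analysis was possible because there was 1 deep library per sex and no result came from a test. Depth limits single windows and bins, and a bin of 10 calls cannot place a level near 20% firmly.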
